A study of Homo sapiens with 4 samples.

Results

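Aminoacyl-tRNA synthetase genes were described in Huh7, a human hepatoma cell line. A list of 36 genes was looked for by symbol, 20 for cytosolic enzymes and 16 for mitochondrial enzymes, whose symbols end in 2. Of these, 34 were listed in all 4 RPKM tables (19 cytosolic and 15 mitochondrial), out of 14055 genes that all 4 tables list, and all 34 passed the filter that left 11085 genes to test (at least 1 RPKM in at least 2 libraries). RPKM is the number of reads per kilobase of transcript, scaled to the mapped reads of the library. HARS and TARS2 were listed in the replicate 2 tables only.

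ISL1, a transcription factor of the LIM-homeodomain family, was delivered by lentivirus (2 libraries), and control cells received a blank lentivirus (2 libraries); all were at passage 3. The title of the second ISL1 library carries the name ISL2. Nothing says whether the duplicates came from separate cultures, so a p-value here measures the spread of these libraries alone, which may be technical. ISL1 itself had 8.22 and 1801 RPKM in the ISL1 libraries, against 0.0454 and 0 RPKM in the controls (replicates 1 and 2 in each group). Library depths, worked out from ratios of low RPKM values, were 29429964 to 37134267 reads, so 1 read in 1 kb of transcript was worth 0.0269 to 0.034 RPKM. Tables of the same replicate number list the same genes and differ in gene list and number format from those of the other number, so each ISL1 library is set beside the control of its own number (pair 1 for replicate 1 and pair 2 for replicate 2), with 1 library a group and no test.

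Aminoacyl-tRNA synthetases join each amino acid to its tRNA and so supply ribosomes with charged tRNA. Most amino acids have a cytosolic enzyme and a separate mitochondrial enzyme, both encoded in the nucleus; GARS and KARS encode the enzymes of both compartments, and mitochondria charge glutamine tRNA without a glutaminyl-tRNA synthetase of their own. When amino acids run short, uncharged tRNA activates the kinase GCN2, which favours translation of the transcription factor ATF4. ATF4, together with C/EBP proteins, binds a composite element in the promoters of amino acid genes, and 13 of the cytosolic members (AARS, CARS, EPRS, GARS, IARS, LARS, MARS, NARS, SARS, TARS, VARS, WARS and YARS) are commonly described as its targets. The other 6 cytosolic members in all tables (DARS, FARSA, FARSB, KARS, QARS and RARS) are not.

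The core of that element, TGATGNAA, was searched on both strands of RefSeq promoter windows (GRCh38.p14, 250 bases before to 50 after the gene's start). A window was found for 30 of the 36 genes, and none for DARS, LARS, VARS, YARS, AARS2 and VARS2. The core lay in 6 of 10 windows of cytosolic genes described as ATF4 targets and in 1 of 14 mitochondrial ones (YARS2). It lay in 0 of 6 windows of other cytosolic genes, which were FARSA, FARSB, HARS, KARS, QARS and RARS. It lay in 3.62% of all 35116 windows of the table, and in 2.69% of the 22199 windows of protein-coding genes. The 6 matches in cytosolic genes are shown because AARS, CARS and TARS are among the members past 1.5-fold below. GARS and SARS are also past 1.5-fold below, but their windows did not hold the core, nor did those of EPRS and WARS. IARS, MARS and NARS hold it and were within 1.5-fold in both pairs without rescaling. Each match is printed on the gene's strand with up to 30 bases on either side, and capitals mark the match.
AARS, chr16:70289656-70289723, minus strand: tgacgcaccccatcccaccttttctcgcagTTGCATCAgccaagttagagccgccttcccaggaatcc
CARS, chr11:3057388-3057455, minus strand: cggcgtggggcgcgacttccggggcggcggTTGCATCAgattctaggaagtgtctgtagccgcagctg
IARS, chr9:92293673-92293740, minus strand: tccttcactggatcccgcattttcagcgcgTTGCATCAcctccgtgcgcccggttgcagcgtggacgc
MARS, chr12:57488034-57488101, plus strand: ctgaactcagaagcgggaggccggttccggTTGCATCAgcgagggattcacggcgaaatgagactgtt
NARS, chr18:57621787-57621852, minus strand: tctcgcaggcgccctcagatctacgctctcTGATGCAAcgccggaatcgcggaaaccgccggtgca
TARS, chr5:33440937-33441004, plus strand: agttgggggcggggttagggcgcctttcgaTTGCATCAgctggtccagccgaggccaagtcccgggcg
All 6 matches hold the same letters, TTGCATCA, or in NARS its reverse complement TGATGCAA. The match begins 187 bases before the start of AARS, and 2, 13 and 4 bases before the starts of CARS, IARS and MARS. In NARS and TARS it begins at bases 15 and 3 of the transcript, counted from 1 at its start. A match is a description of the letters, not a site of binding.

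The pooled comparison of 2 ISL1 libraries with 2 controls called no synthetase gene. It did not call ISL1 itself either (log2 fold change 6.98, SE 2.87), so a member without a call may still differ. With limma on log2(RPKM + 1), 0 of 34 members passed an adjusted p of 0.05 and 0 had an unadjusted p under 0.05, where 0.00% of all genes tested were called and 0.135% (15 genes) had an unadjusted p under 0.05. The members with the smallest p were MARS (log2 fold change -0.28, SE 0.38), VARS (-0.40, SE 0.58), IARS2 (-0.16, SE 0.29) and YARS (0.20, SE 0.39), each with a limma adjusted p of 1.00. No member had both ISL1 libraries above both controls (5.52% of all genes did) or below both (5.08% of all genes). A member could show neither where its level differed more between the replicate numbers than with ISL1. Examples are TARS, VARS2 and IARS, whose second control stood at 504, 128 and 49.7 times the first. With 2 libraries a group, the smallest p an exact permutation test allows is 0.333.

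Of the 34 members, 21 stood on opposite sides of 0 in the 2 pairs, near the share of all genes (6404 of 11085). In pair 1, 2 members were at least 1.5-fold lower with ISL1 (7.03% of all genes) and 1 was at least 1.5-fold higher (5.99% of all genes). The counts were 2 lower and 4 higher with median-ratio scaling, and 5 lower and 1 higher with upper-quartile scaling. In pair 2, 12 members passed 1.5-fold (30.1% of all genes), 6 of them higher (17.8% of all genes) and 6 lower (12.3% of all genes). With median-ratio scaling 4 were higher and 8 lower, since AARS and YARS no longer passed 1.5-fold and FARS2 and IARS2 did. Folds were taken on log2(RPKM + 1), where low genes show less than their full change. Lower in pair 1 and higher in pair 2 were 10 members, all cytosolic (31.5% of all genes), and the reverse held for 11, of which 8 were mitochondrial (26.3% of all genes). Higher in both pairs were 8 (23.1% of all genes; 2 members with median-ratio scaling), lower in both were 5 (19.1% of all genes; 8 members with upper-quartile scaling), and none passed 1.5-fold the same way in both (1.53% of all genes). Across the 34 members Spearman's rho between the differences of the pairs was -0.50 and Pearson's r -0.67, against -0.22 and -0.19 across all genes tested; genes are not independent replicates. Spearman's rho was -0.59 across the 19 cytosolic members and -0.11 across the 15 mitochondrial ones, which is weaker than across all genes.

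**Figure D1:**
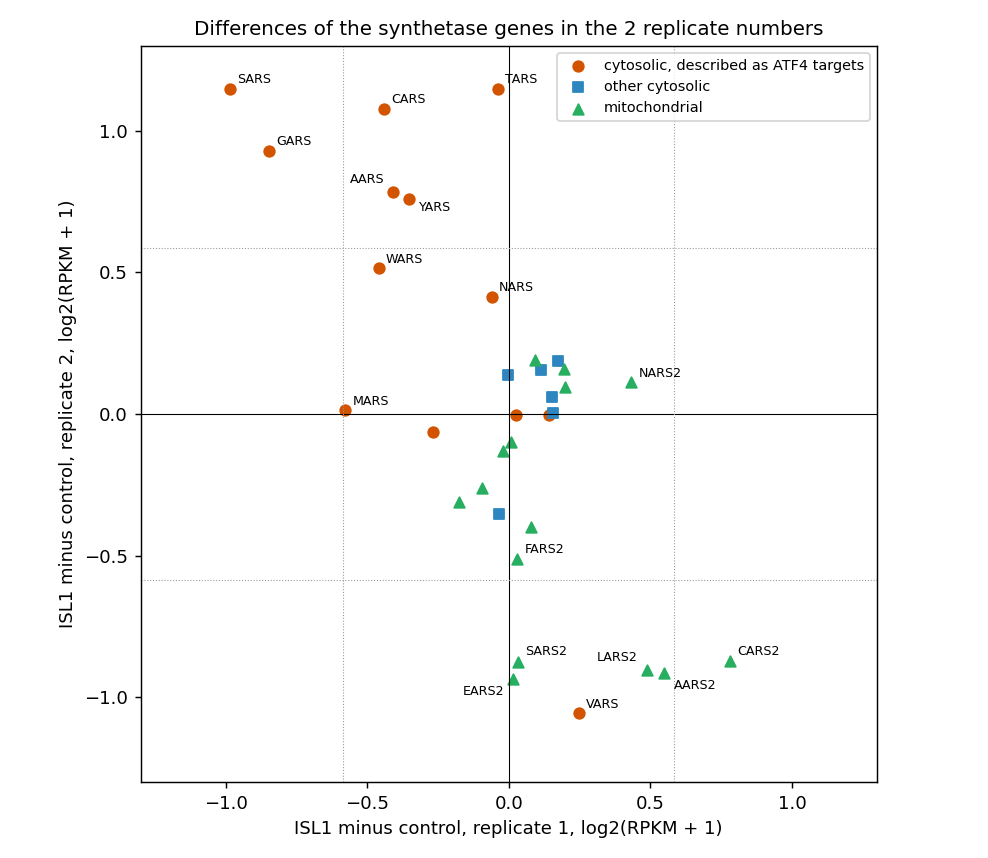
Difference between the ISL1 and control library of replicate 1 (horizontal) and of replicate 2 (vertical) for each of the 34 genes, on log2(RPKM + 1); dotted lines mark 1.5-fold. Cytosolic genes described as ATF4 targets lie mostly in the upper left, 11 of 15 mitochondrial genes lie below 0 on the vertical axis, and the other cytosolic genes lie near the centre.

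The cytosolic genes described as ATF4 targets held the larger differences of the cytosolic set. Of 13, 10 were lower with ISL1 in pair 1 (50.6% of all genes were) and 9 were higher in pair 2 (54.6% of all genes were). Both held for 9 (31.5% of all genes). Their median differences on log2(RPKM + 1) were -0.35 for pair 1 and 0.52 for pair 2, against -0.0021 and 0.058 for all genes tested. GARS, the glycine enzyme of both compartments, had 62.5 RPKM in the first ISL1 library against 113 in its control, and 105 RPKM in the second ISL1 library against 54.4 in its control. SARS, the serine enzyme, had 19.4 RPKM in the first ISL1 library against 39.3 in its control, and 71.4 in the second ISL1 library against 31.7 in its control. For both genes the differences were of like size and opposite sign: -0.85 and 0.93 for GARS and -0.98 and 1.15 for SARS.

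AARS, the alanine enzyme, was the highest member in every library. It had 136 RPKM in the first ISL1 library against 181 in its control, and 265 RPKM in the second ISL1 library against 154 in its control, so that its 2 ISL1 libraries lay on either side of both controls. YARS, the tyrosine enzyme, had 58.0 RPKM in the first ISL1 library against 74.2 in its control, and 84.8 RPKM against 49.6 in pair 2. CARS, the cysteine enzyme, and TARS, the threonine enzyme, had under 1 RPKM in both libraries of pair 1 and over 20 RPKM in both of pair 2. CARS had 44.0 RPKM in the second ISL1 library against 20.3 in its control, and TARS 82.0 against 36.4.

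In pair 1 CARS had 0.0662 RPKM with ISL1 against 0.446 in the control, and TARS 0.0449 against 0.0724. These rest on 7 reads with ISL1 and 41 in the control for CARS, and on 5 and 7 reads for TARS. The exact 95% interval of the ratio of ISL1 to control, which covers counting error only, ran from 0.0562 to 0.334 for CARS and from 0.155 to 2.27 for TARS. A difference of TARS in pair 1 was therefore not detectable at this depth.

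VARS, the valine enzyme, stood higher with ISL1 in pair 1 and lower in pair 2. It had 36.5 RPKM in the first ISL1 library against 30.6 in its control, and 14.2 RPKM in the second ISL1 library against 30.6 in its control, a difference of -1.06 in pair 2. MARS, the methionine enzyme, had 99.2 RPKM with ISL1 against 149 in the control of pair 1, and 88.0 against 87.2 in pair 2. Its difference of -0.58 in pair 1 was just within 1.5-fold, and that of pair 2 was below 0 with median-ratio and upper-quartile scaling. WARS, the tryptophan enzyme, which interferon also induces, had 0.532 RPKM with ISL1 against 1.11 in pair 1 and 20.0 against 13.7 in pair 2.

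NARS, the asparagine enzyme, differed by -0.06 and 0.41 in pairs 1 and 2 (above 0 in pair 1 with median-ratio scaling), and IARS, the isoleucine enzyme, by -0.27 and -0.06. EPRS carries the glutamate and proline activities in a single protein, and LARS is the leucine enzyme and a sensor of leucine for mTORC1. Without rescaling EPRS and LARS were the steadiest of the 13. With median-ratio scaling EPRS differed by 0.23 and -0.21 and LARS by 0.34 and -0.20, against 0.14 and 0.20 for NARS. EPRS had 69.7 RPKM with ISL1 against 68.4 in pair 1, and 50.7 against 50.9 in pair 2. LARS had 23.9 RPKM with ISL1 against 21.6, and 24.0 against 24.0.

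The other 6 cytosolic members stayed within 1.5-fold in both pairs (62.5% of all genes did). Their differences lay between -0.03 and 0.17 for pair 1, with a median of 0.13, and between -0.35 and 0.19 for pair 2, with a median of 0.10. In pair 2 the differences of DARS, FARSA, FARSB, KARS and RARS, all above 0, were below 0 with median-ratio scaling. DARS, the aspartate enzyme, had 42.1 RPKM with ISL1 against 37.8 in pair 1, and 31.3 against 29.9 in pair 2. FARSA and FARSB encode the catalytic and the other subunit of the cytosolic phenylalanine enzyme. FARSA had 50.1 RPKM with ISL1 against 44.9, and 54.0 against 53.8; FARSB had 26.7 against 24.6, and 18.4 against 16.4. QARS, the glutamine enzyme, gave the largest of these differences, with 81.5 RPKM in the second ISL1 library against 104 in its control. RARS, the arginine enzyme, and KARS, the lysine enzyme of both compartments, differed by -0.0040 and 0.14 and by 0.17 and 0.19. HARS, the histidine enzyme, had 21.5 RPKM with ISL1 against 20.0 in pair 2; HARS2 is a close copy of it, and how reads were divided between them is not known.

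Over all 19 cytosolic members the medians were -0.04 and 0.16 in pairs 1 and 2; with median-ratio scaling these turned to 0.13 and -0.04.

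**Figure D2:**
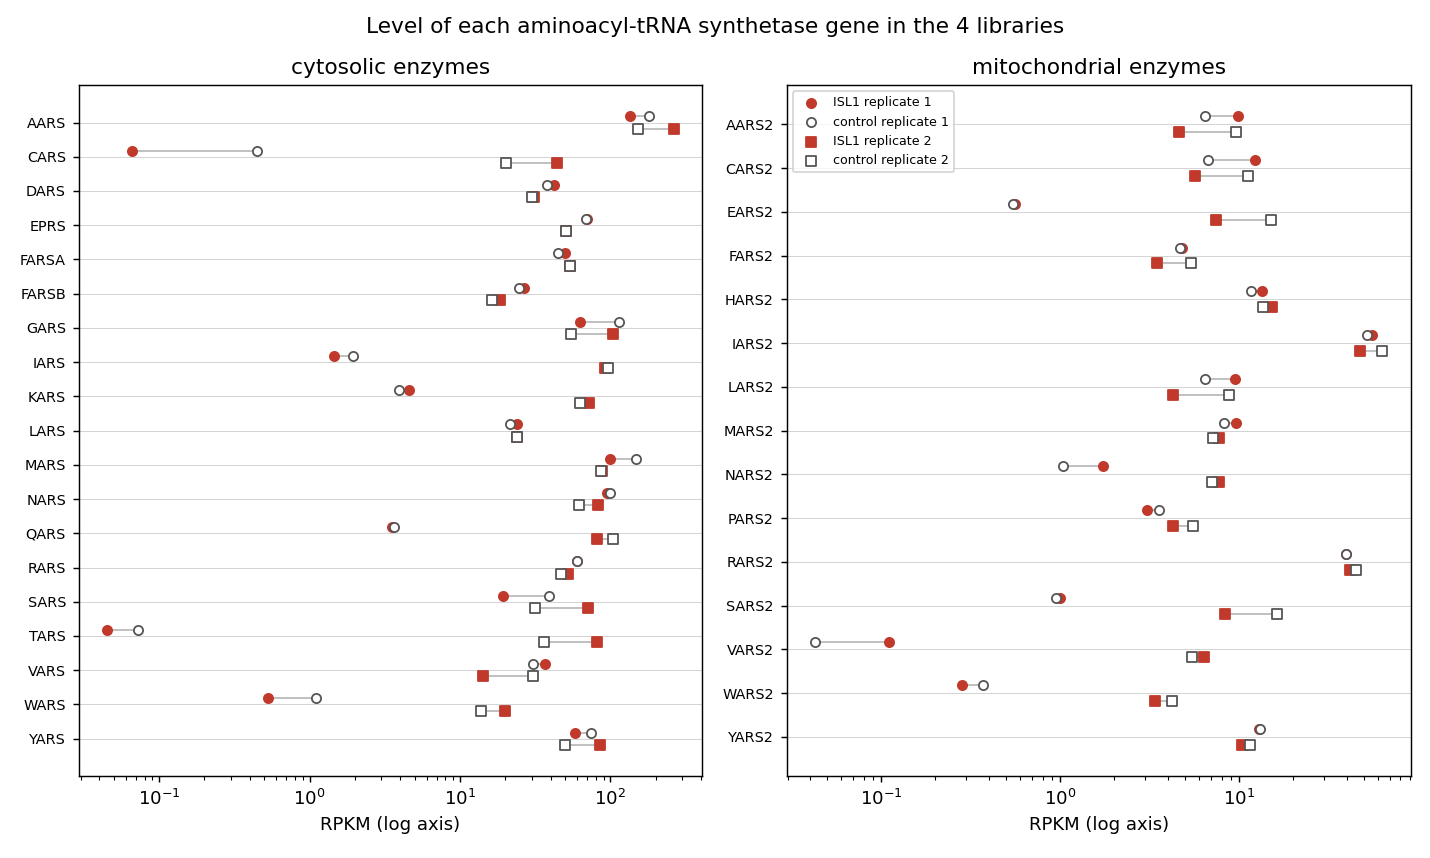
RPKM (log axis) of each synthetase gene, with ISL1 libraries filled and controls open, circles for replicate 1 and squares for replicate 2, and a grey line joining the libraries of a pair. In AARS, GARS, SARS and YARS the filled symbol lies left of the open circle in replicate 1 and right of the open square in replicate 2, and AARS2, CARS2 and LARS2 show the reverse.

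Mitochondrial members stood mostly higher with ISL1 in pair 1 and lower in pair 2. Of 15, 12 were higher in pair 1 (49.4% of all genes were) and 11 lower in pair 2 (45.4% of all genes were), with medians of 0.08 and -0.31. The 12 include RARS2 (0.01), EARS2 (0.02), FARS2 (0.03) and SARS2 (0.03), which were close to 0 in pair 1, and VARS2, which rests on 15 and 5 reads. CARS2, the mitochondrial cysteine enzyme, had 12.3 RPKM in the first ISL1 library against 6.73 in its control, and 5.67 RPKM in the second ISL1 library against 11.2 in its control. It was the member past 1.5-fold upward in pair 1. AARS2, the alanine enzyme, had 9.92 RPKM with ISL1 against 6.46 in pair 1 and 4.63 against 9.60 in pair 2. LARS2, the leucine enzyme, had 9.46 RPKM with ISL1 against 6.46, and 4.26 against 8.84.

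EARS2, the glutamate enzyme, and SARS2, the serine enzyme, were past 1.5-fold in pair 2 and within it in pair 1. EARS2 had 7.41 RPKM in the second ISL1 library against 15.1 in its control, and 0.562 against 0.545 in pair 1. SARS2 had 8.41 RPKM in the second ISL1 library against 16.3 in its control, and 0.995 against 0.952 in pair 1. Pair 1 rests on 83 reads with ISL1 and 70 in the control for EARS2, and on 77 and 64 for SARS2. FARS2, the phenylalanine enzyme, which works as a monomer, differed by 0.03 and -0.51, and its pair 2 difference passed 1.5-fold with median-ratio scaling and with a pseudocount of 0.1.

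The remaining 9 mitochondrial members were within 1.5-fold in both pairs (62.5% of all genes were), but with median-ratio scaling IARS2 passed it in pair 2 (-0.60) and NARS2 in pair 1 (0.65), and with a pseudocount of 0.1 NARS2 did in pair 1 (0.70). RARS2, the arginine enzyme, had 39.7 RPKM with ISL1 against 39.5, and 42.0 against 45.0. IARS2, the isoleucine enzyme and the highest mitochondrial member in every library, had 55.3 RPKM with ISL1 against 52.3, and 47.8 against 63.3. HARS2 (0.19 and 0.16), MARS2 (0.20 and 0.09), NARS2 (0.43 and 0.11) and VARS2 (0.09 and 0.19) stood higher with ISL1 in both pairs, for histidine, methionine, asparagine and valine, but HARS2, MARS2 and NARS2 stood lower in pair 2 with median-ratio scaling. PARS2 (-0.17 and -0.31), WARS2 (-0.09 and -0.26) and YARS2 (-0.02 and -0.13) stood lower in both, for proline, tryptophan and tyrosine, but YARS2 stood higher in pair 1 with median-ratio scaling. VARS2 rests on 15 reads with ISL1 and 5 in the control in pair 1 (exact 95% interval of the ratio 0.901 to 9.17, counting error only). WARS2 rests on 30 reads with ISL1 and 34 in the control there (0.454 to 1.29). TARS2, the threonine enzyme, had 9.10 RPKM with ISL1 against 13.5 in pair 2.

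For 11 amino acids both the cytosolic and the mitochondrial gene were in all tables, and each library gives a ratio of the pair per length. The cytosolic gene was the higher for 11 of 11 amino acids in the second ISL1 library and in its control, and for 9 of 11 in the first ISL1 library and in its control, where cysteine and isoleucine were the exceptions. For these, CARS and IARS in the second control stood at 45.5 and 49.7 times their level in the first. CARS2 and IARS2 stood at 1.66 and 1.21 times theirs. The reason was not tested. With ISL1 the ratio of cytosolic to mitochondrial gene was lower for 10 of 11 amino acids in pair 1 and higher for 9 of 11 in pair 2. The median change was -0.36 and 0.78 on log2(RPKM + 1). For alanine, AARS stood at 13.7 times the RPKM of AARS2 in the first ISL1 library against 28.0 times in its control, and at 57.3 times in the second ISL1 library against 16.0 times in its control. For serine, SARS stood at 19.4 times the RPKM of SARS2 in the first ISL1 library against 41.3 times in its control, and at 8.49 times in the second ISL1 library against 1.95 times in its control. On log2(RPKM + 1) valine was the exception in pair 1, and valine and methionine were the exceptions in pair 2, where the change for methionine was -0.08. VARS stood at 2.23 times VARS2 in the second ISL1 library against 5.63 times in its control. In pair 1 it stood at 328 times with ISL1 against 717 times in the control, where VARS2 had 15 and 5 reads, so the plain ratio was lower with ISL1 and the direction depends on the pseudocount.

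**Figure D3:**
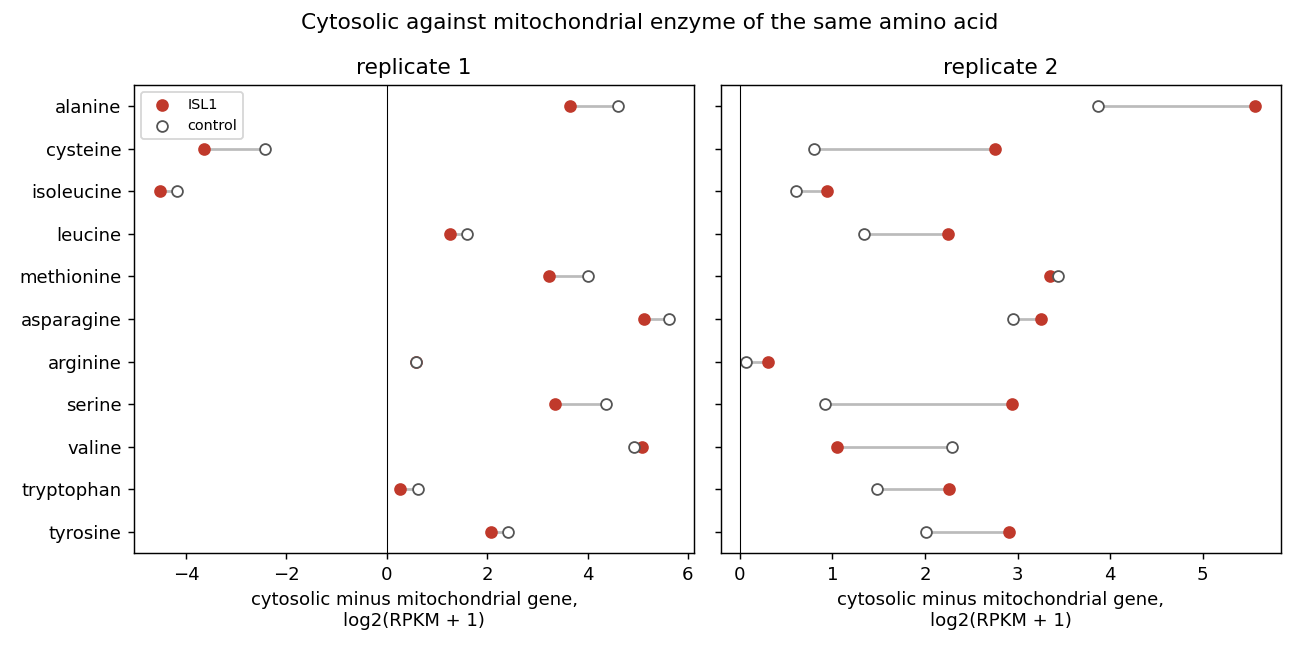
Difference between the cytosolic and the mitochondrial gene of the same amino acid on log2(RPKM + 1), for the ISL1 (filled) and control (open) library of replicate 1 (left) and replicate 2 (right). The ISL1 library lies left of its control for 10 of 11 amino acids in replicate 1, and right of it for 9 of 11 in replicate 2.

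Level differences between the replicate numbers were larger for some members than any difference between ISL1 and control. Whole read numbers and a transcript length could be recovered for each member, up to a common factor. For 24 of 34 members 1 length served both replicate numbers, and for 10 it did not (7 cytosolic and 3 mitochondrial). For KARS, as an instance, the lengths were 2197 and 2017 bases, and for TARS 2996 and 2850. Of the 24 with the same length, 22 had a ratio of the second to the first control of at most 2, with a median over the 24 of 1.06. Of the 10 with different lengths, 9 had a ratio over 2, with a median over the 10 of 16.6. SARS was the exception among these 10, and EARS2 (27.7) and VARS2 (128) among the 24. TARS in the second control stood at 504 times its level in the first. Why the tables differ was not tested.

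**Figure D4:**
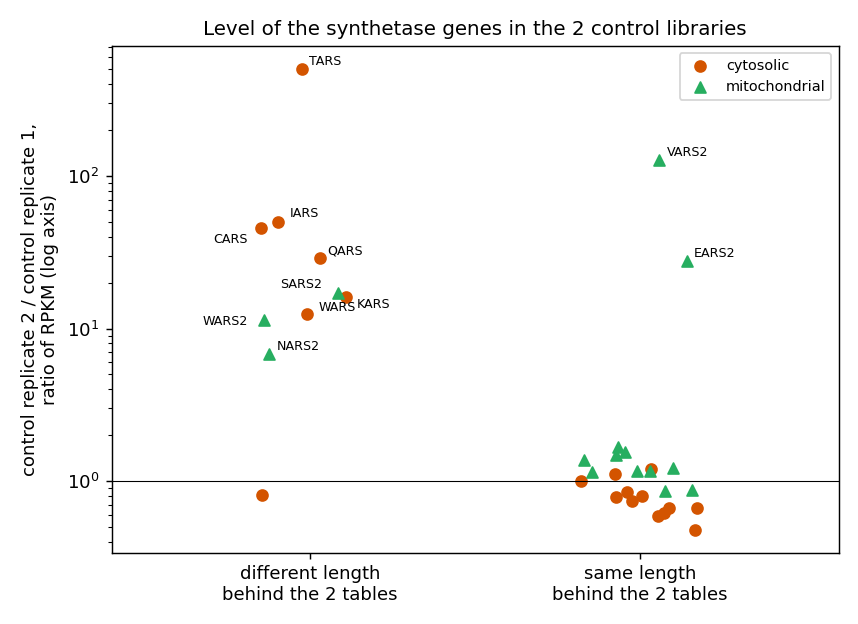
Ratio of RPKM in the second to the first control library (log axis) for the 34 genes, split by whether the recovered transcript length differed between the tables of the 2 replicate numbers or was the same. Genes with the same length lie near 1 except EARS2 and VARS2, and genes with different lengths lie above 6 except SARS.

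With the 24 members of unchanged length alone, 5 of 8 genes described as ATF4 targets were lower with ISL1 in pair 1 and 5 of 8 higher in pair 2, both near the shares of all genes (50.6% and 54.6%). Of 12 mitochondrial genes, 10 were higher in pair 1 and 9 lower in pair 2 (49.4% and 45.4% of all genes were).

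Other genes of the ATF4 pathway also stood mostly lower with ISL1 in pair 1 and higher in pair 2. Of 20 listed genes 19 were tested. Of these, 18 were lower with ISL1 in pair 1 (50.6% of all genes were) and 18 higher in pair 2 (54.6% of all genes were). Their medians were -0.85 and 0.82. DDIT3, the transcription factor CHOP, had 2.92 RPKM in the first ISL1 library against 11.8 in its control, and 322 RPKM in the second ISL1 library against 39.9 in its control. CHAC1, which degrades glutathione, had 0.734 RPKM with ISL1 against 5.75, and 32.0 against 6.17. SLC7A11, the cystine transporter, differed by -1.65 and 2.17. ATF4 itself differed by -0.50 and 0.22, and EIF2AK4, which encodes GCN2, by -0.07 and 0.09; ATF4 is controlled mainly through its translation. None of the 19 passed limma (smallest adjusted p 1.00).

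The multisynthetase complex holds 8 of the cytosolic enzymes (EPRS, IARS, LARS, MARS, QARS, RARS, KARS and DARS) and the scaffold proteins of AIMP1, AIMP2 and EEF1E1. All 8 enzymes were within 1.5-fold in both pairs (62.5% of all genes were), with medians of 0.01 and 0.01, but MARS passed it in pair 1 with upper-quartile scaling (-0.61). AIMP1, a scaffold that is also secreted as a cytokine, had 27.4 RPKM in the second ISL1 library against 15.8 in its control, and 0.690 against 0.735 in pair 1. AIMP2 differed by -0.13 and 0.39 and EEF1E1 by 0.08 and 0.43.

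Further groups bear on mitochondrial tRNA charging and its use. Of 4 non-synthetase genes that act on mitochondrial tRNA, PET112 had 7.99 RPKM in the second ISL1 library against 16.4 in its control. It had 10.3 against 9.57 in pair 1, and encodes a subunit of the amidotransferase that makes mitochondrial glutamine tRNA. The other 3 (QRSL1, GATC and MTFMT) stayed within 1.5-fold in both pairs (62.5% of all genes did). Of 9 mitochondrial translation factors, 5 were higher in pair 1 and 4 lower in pair 2, near the shares of all genes (49.4% and 45.4%). TUFM, the elongation factor that brings charged tRNA to the mitochondrial ribosome, had 63.2 RPKM in the second ISL1 library against 100.3 in its control, and 97.7 against 83.7 in pair 1.

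The libraries of pair 2 also differed in markers of the cell line and of other cell types, whose part in these results was not tested. All 8 hepatoma markers were lower with ISL1 there by at least 1.5-fold (12.3% of all genes were), with a median of -1.13 against 0.058 for all genes. Their summed level was 9897 RPKM in the second ISL1 library against 22178 in its control, and 19963 against 20105 in pair 1. In pair 1 HNF4A, a defining liver factor, was at 0.0335 RPKM with ISL1 and listed at 0.0001 RPKM in the control. GPC3 (0.393 and 0.426 RPKM) and SERPINA1 (1.05 and 2.00) were also low with ISL1 and in the control of pair 1. In pair 2 GPC3 had 389 and 619 RPKM and SERPINA1 had 495 and 820. AFP (10266 and 11311 RPKM in pair 1), ALB, APOA1, APOB and TTR showed no gap of that size between the pairs. The reason was not tested. Of 6 heart markers 3 were in all tables, with a sum of 25.9 RPKM in the second ISL1 library against 0.552 in its control, and 0.829 against 0.746 in pair 1. Most of it was NPPA, with 22.0 RPKM in the second ISL1 library, where ACTC1 had 2.40 and MYH7 1.44. HBB, the red cell marker in all tables (1 of 5), was listed at 0 in the second ISL1 library and at 398 RPKM in its control. Of 5 leukocyte markers 3 were in all tables, with a sum of 58.1 RPKM in the second ISL1 library against 77.2 in its control and 1.92 against 2.62 in pair 1, most of it CD68. In bulk RNA, fewer cells of a type and less RNA per cell cannot be told apart.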

How the data were processed

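RNA was sequenced from 4 libraries of Huh7 cells. The authors deposited 1 table of RPKM values per library, with gene symbols and no read counts, per the file headers. Per the submitters' processing notes CASAVA 1.4, BWA and hg19 were used; what each was used for, and which annotation and counter, is not given in the sources used here. Tables were joined by symbol. After a minimum of 1 RPKM in 2 or more libraries, genes shared by the 4 tables were tested on log2(RPKM + 1) with limma 3.58.1 under R 4.3.3 (moderated statistics with an intensity trend on 2 residual degrees of freedom, two-sided, Benjamini-Hochberg over all genes). The fit was checked on simulated data of 4 independent libraries with the same spread for every gene. Those data had no shift between replicate numbers, so the check does not cover data like these. Differences within a replicate number have no test.

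Depth came from RPKM ratios within a replicate number: 96.5% and 94.3% of genes under 5 RPKM had RPKM ratios between whole numbers no larger than 500 (relative tolerance 1e-07), against 0.475% and 0.337% after multiplying by an arbitrary factor. A member's length is the smallest that makes both read numbers whole within 0.0001; lengths count as the same where a common multiple up to 10000 bases exists. Reads hold up to that factor, so no count model was run.

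Members and lists were chosen with earlier results of these data known. Values are given for members past 1.5-fold in either pair and for opposed amino acid partners, limma statistics for the 4 with the smallest p, and up to 3 genes of each accessory list by size of difference. MARS, WARS, steady members, ATF4, EIF2AK4 and others beyond it were picked with their values in view. Alternatives were another pseudocount, filters, scalings, a replicate block and each library left out. Tables and figures were made in Python 3.11.15 (SciPy 1.17.1, pandas 2.3.3, matplotlib 3.10.9, NumPy 2.4.6). Coordinates of promoters are RefSeq's on GRCh38.p14; no coordinates are joined to the hg19 values.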

Additional observations from a re-analysis of the deposited data

How the results depend on the processing

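No synthetase gene and no gene of the whole table passed limma under any alternative run (smallest adjusted p of a member 0.991). The replicate block gave 0 calls as well, over all genes (260 with an unadjusted p under 0.05, against 15 without it) and over the members (0 unadjusted). Deviations from the group means correlated at 0.88 between same-numbered libraries, but the labels do not say what the number marks. Members past 1.5-fold in pair 1 numbered 3, against 7 with a pseudocount of 0.1, 6 with median-ratio scaling, 6 with upper-quartile scaling and 0 at 2-fold; in pair 2 they numbered 12, against 4 at 2-fold. Median-ratio scaling moved the median of all genes by 0.10 and -0.18 in pairs 1 and 2; it turned the cytosolic medians to 0.13 and -0.043 and left 2 members higher in both pairs in place of 8. Members lower in both pairs numbered 5, against 3 with a minimum of 5 RPKM and 8 with upper-quartile scaling. The median pooled difference was 0.08 for cytosolic genes and ran from -0.20 (without the second ISL1 library) to 0.41 (without the first) with a library left out; for mitochondrial genes it was -0.16 and ran from -0.41 to 0.07 (without the first and the second control). With a library left out MARS ran from -0.66 to 0.10, VARS from -1.06 to 0.25, YARS from -0.081 (without the second control; -0.066 without the second ISL1 library) to 0.49, and IARS2 from -0.29 to -0.025. Chosen after seeing the data, members of unchanged length alone gave 5 of 8 genes described as ATF4 targets lower in pair 1 and 5 of 8 higher in pair 2, near the shares of all genes (50.6% and 54.6%), and a lower ratio in pair 1 for 5 and a higher one in pair 2 for 4 of 6 amino acids. All 15 differences past 1.5-fold kept their sign under the 5 alternatives of pseudocount, filter and scaling, but with median-ratio scaling AARS (0.57) and YARS (0.55) no longer passed 1.5-fold in pair 2, where 4 members were then higher and 8 lower in place of 6 and 6. The cause of these shifts was not tested. Depth limits CARS, TARS, VARS2 and WARS2 in pair 1. The exact intervals of TARS, VARS2, WARS2, EARS2 and SARS2 there include no difference.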

Other observations

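Among 6 interferon genes tested because WARS is induced by interferon, IRF1, an interferon regulatory transcription factor, had 2.33 RPKM in the first ISL1 library against 7.68 in its control, and 12.8 RPKM in the second ISL1 library against 4.11 in its control. IFIT1, an antiviral RNA-binding protein, had 7.86 RPKM in the second ISL1 library against 3.64 in its control, and ISG15, a ubiquitin-like protein, 35.7 against 20.2. Of the 6, 4 were lower in pair 1 and 5 higher in pair 2 (50.6% and 54.6% of all genes were). Of 5 genes for cytosolic elongation factors and subunits of their nucleotide exchange factor, 3 were lower with ISL1 in pair 1 and 4 in pair 2 (50.6% and 45.4% of all genes were). EEF1A1, the carrier of charged tRNA, had 3090 RPKM in the first ISL1 library against 4822 in its control. It had 2735 RPKM in the second ISL1 library against 3698 in its control. Both ISL1 libraries lay below both controls for 2 of the 5, EEF1A1 and EEF1G (5.08% of all genes did). EEF1G had 1126 and 1237 RPKM in the ISL1 libraries against 1256 and 1245 in the controls. No gene named here passed limma (adjusted p 1.00 for each).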
